A study of Saccharomyces cerevisiae with 6 samples.

Results

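The nuclear spliceosome cuts introns from pre-mRNA in yeast, and the genes of its name families *PRP*, *LSM*, *SNU*, *CWC*, *SYF* and *SMD*, with *YJU2*, are described here by their signal on expression arrays. A gene was a member when its systematic name in the deposited table belongs to a standard *S. cerevisiae* symbol made of 1 of these 6 letter codes and a number, or to *YJU2*. The rule found 52 genes, each with 1 probe set, among 5705 probe sets for 5657 genes. The *PRP* family had 23 members, *LSM* 9, *CWC* 8, *SNU* 6, *SMD* 3 and *SYF* 2.

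*S. cerevisiae* F12, an engineered industrial yeast, fermented glucose (20 g/L) in YNB medium that also held ammonium sulfate (7.5 g/L). One group of cultures held 40% insoluble solids (IS, w/w) in the form of glass beads, which stood in for lignocellulosic fibres, and the other held 0% IS. RNA of cells taken after 4 h was read on Affymetrix expression arrays, 3 for 40% IS and 3 for 0% IS. The methods call these independent RNA replicates and do not say whether each came from a culture of its own, and all cells were of 1 strain.

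The value given for each member is the authors' mean log2 signal, 1 number per probe set after RMA normalization. From the column's name it was read as limma's mean over the arrays of both conditions, but the table does not state which arrays entered it. This pooled mean has no SD, and no level for 40% IS or 0% IS alone can be read from it. The deposited table holds no values per array, and its comparison of the conditions was not used here. No statement on higher or lower expression with solids is therefore made. A probe set's signal depends on its probes as well as on its transcript. The values therefore describe how brightly each member was read, and no order of transcript levels between genes is drawn from them.

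Splicing runs through small nuclear ribonucleoproteins (snRNPs), each built on a U RNA. U1 and U2 mark the 5' splice site and the branch point, the U4/U6.U5 tri-snRNP joins them, and the Prp19 complex enters as the machine becomes active. RNA helicases drive the transitions between these states. Many *PRP* genes were found through mutants with faulty pre-mRNA processing, and most spliceosome proteins are needed for growth although few yeast genes carry an intron.

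The 52 members had a median of 8.24 and ranged from 6.94 to 12.43 on the log2 signal scale, while all 5705 probe sets had a median of 8.79 and ranged from 6.20 to 14.14. Of the members, 19 lay below the lower quartile of all probe sets (8.03), which is 36.5% of them, beside 1426 of all 5705 probe sets, and 6 lay above the upper quartile (9.74). Those 6 were *SNU13*, *PRP43*, *LSM1*, *LSM2*, *LSM3* and *LSM5*. These shares are a description of the list and were not tested.

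Set beside each other, the families spread to different degrees. The *LSM* family had a median of 9.72 and ranged from 7.81 to 10.53. *SMD* had a median of 8.76 with all 3 members between 8.74 and 8.98. The *PRP* family, the largest, had a median of 8.23 and ranged from 7.14 to 10.32. *CWC* had a median of 8.07 and the narrow range of 7.79 to 8.34, an SD between its 8 probe sets of 0.23. In *SNU* the median was 8.03 and the SD between probe sets 1.89, because *SNU13* stood at 12.43 and the other 5 members between 7.31 and 8.46. Both *SYF* members lay close to each other, at 7.76 and 7.85. *YJU2* had the value 6.94. Below the lower quartile of the table stood 8 of 23 *PRP*, 1 of 9 *LSM*, 3 of 6 *SNU*, 4 of 8 *CWC*, 2 of 2 *SYF* and 0 of 3 *SMD* probe sets, and *YJU2*.

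**Figure D1:**
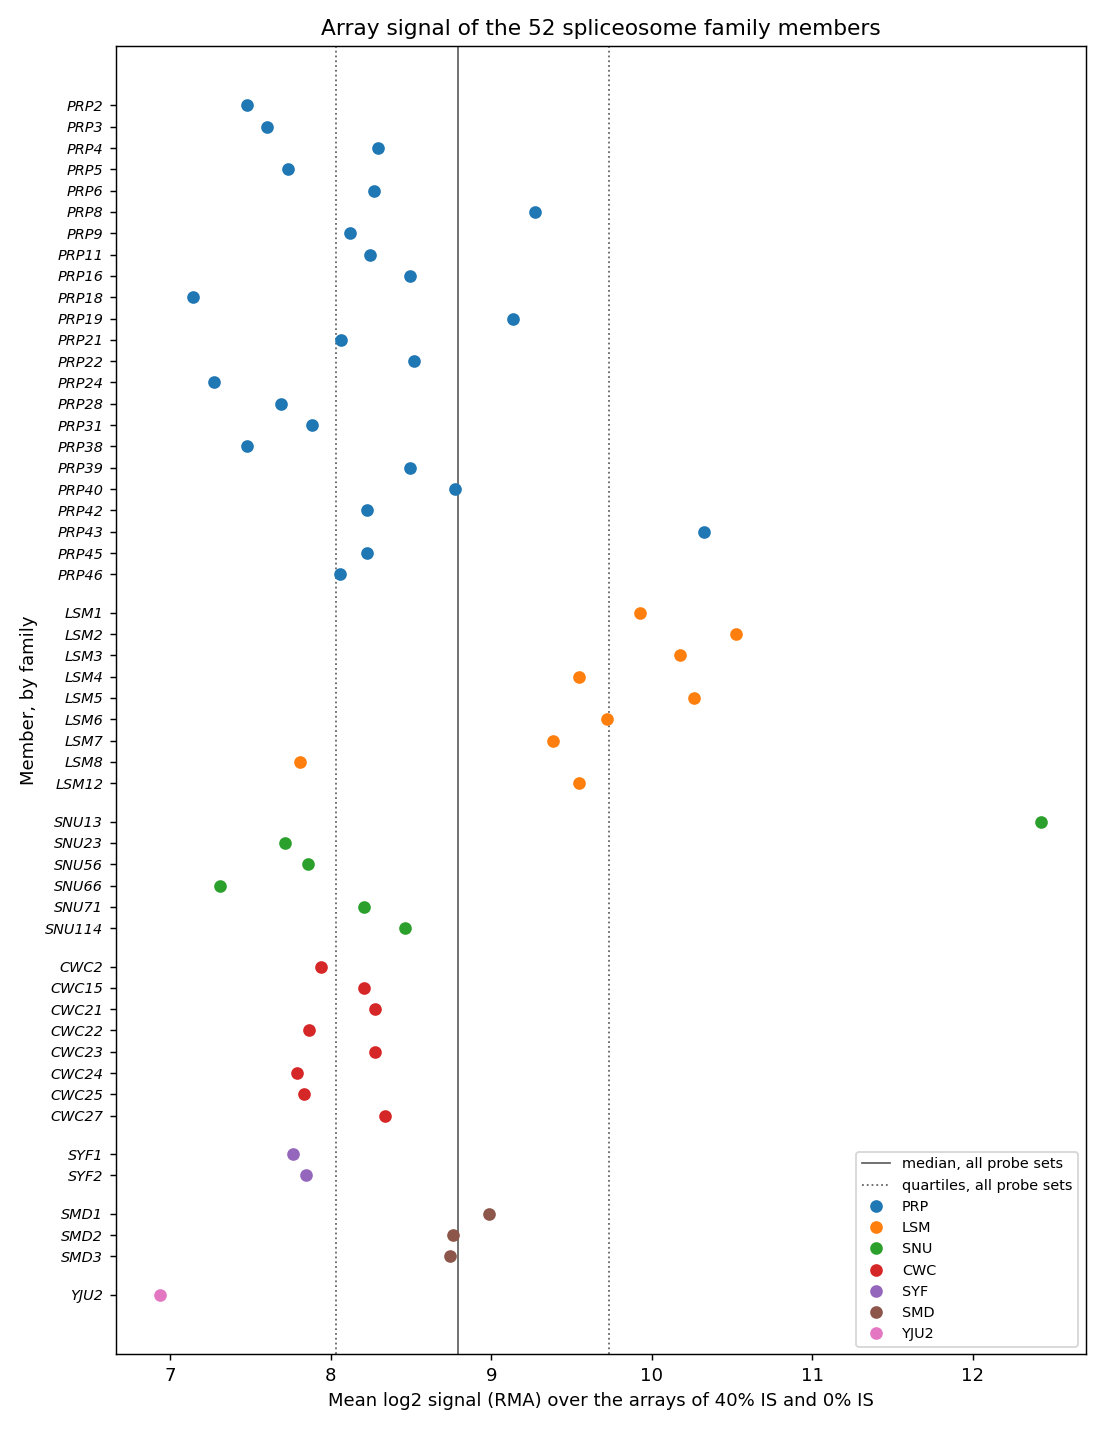
Authors' mean log2 signal (horizontal axis, RMA) of each member (vertical axis), with 1 point per probe set, coloured by family; the solid line is the median of all 5705 probe sets and the dotted lines are their quartiles, 8.03 and 9.74. *SNU13* at 12.43 stands apart from the rest of its family, *LSM8* at 7.81 lies left of the other *LSM* points, and the *CWC* points keep to 7.79 to 8.34.

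The Sm proteins form a ring of 7 on the U1, U2, U4 and U5 RNAs. *SMD1* had a mean log2 signal of 8.98, *SMD2* one of 8.76 and *SMD3* one of 8.74. The other 4 genes of the ring carry names outside the families, and they ranged from 8.37 for *SME1* to 10.03 for *SMX3*, with *SMX2* at 9.08 and *SMB1* at 9.39. Over all 7 ring genes the median was 8.98 and 0 lay below the lower quartile of the table.

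Like-Sm (Lsm) proteins build 2 related rings that share Lsm2 to Lsm7. With Lsm8 the ring binds the end of U6 RNA in the nucleus, and with Lsm1 it acts in mRNA decay in the cytoplasm. The 6 shared subunits had signals of 10.53 for *LSM2*, 10.18 for *LSM3*, 9.55 for *LSM4*, 10.26 for *LSM5*, 9.72 for *LSM6* and 9.39 for *LSM7*, so that all of them were above the median of the table. *LSM1*, the subunit of the decay ring alone, had 9.93. *LSM8*, the subunit of the U6 ring alone, had 7.81 and was the 1 member of its family below the lower quartile. Because these are different probe sets, the gap of *LSM8* to the others is a gap in signal. *LSM12*, which carries an Lsm-type domain and is not a subunit of either ring, had 9.55.

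U1 snRNP in yeast holds several proteins that recognise the 5' splice site at the start of assembly. *PRP39* and *PRP42* encode related U1 proteins and had mean log2 signals of 8.49 and 8.23. *PRP40*, whose product has WW domains, stood at 8.77. *SNU71* had 8.21, and *SNU56* had 7.86, the 1 value of these 5 below the lower quartile. The other 5 U1 genes of the fixed list (*YHC1*, *SNP1*, *MUD1*, *NAM8* and *LUC7*) ranged from 7.63 to 9.04, with a median of 8.25 beside 8.23 for the members.

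In U2 snRNP, *PRP9*, *PRP11* and *PRP21* encode the 3 subunits of the complex known in human cells as SF3a, which helps U2 hold the branch point. Their signals were 8.12, 8.25 and 8.06, so that all 3 lay just above the lower quartile of the table. Of the other 9 genes of this group on the list (*CUS1*, *CUS2*, *HSH155*, *HSH49*, *RSE1*, *YSF3*, *RDS3*, *LEA1* and *MSL1*), which had a median of 8.49 and ranged from 7.60 to 8.99, *MSL1* (7.60) and *HSH155* (7.89) were below it.

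The tri-snRNP brings U4, U5 and U6 to the splice sites and held 10 of the members. *PRP8*, the large core protein of U5 around the catalytic RNA, had a mean log2 signal of 9.27. *SNU114*, a GTPase that sits on Prp8, had 8.46. *PRP6*, which bridges U5 and U4/U6, had 8.27. Among the proteins of the U4/U6 part, *PRP4* had 8.29, *PRP31* 7.88 and *PRP3* 7.60. *PRP38*, needed for the step to the active form, had 7.47, while *SNU23* had 7.72 and *SNU66* 7.31. *SNU13* had 12.43. Its product binds U4 RNA and is also a core protein of the box C/D small nucleolar RNPs that guide modification of ribosomal RNA. Without *SNU13*, the other 9 members had a median of 7.88 and 5 of them lay below the lower quartile. *PRP24*, whose product anneals U4 to U6, is grouped on its own and had 7.27.

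The fixed list also sets genes with other names beside the tri-snRNP, a grouping that does not make each of them a subunit. Of these, *BRR2*, the helicase that unwinds U4 from U6, had 9.09. *DIB1*, a small U5-associated protein, had 9.11. *LIN1* (6.90), *AAR2* (6.82) and *SPP381* (6.58) were below the lower quartile of the table. *AAR2* encodes a factor that holds Prp8 during maturation of U5.

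The Prp19 complex takes its name from a ubiquitin ligase. *PRP19* itself had a mean log2 signal of 9.13. *PRP45* and *PRP46*, which encode associated proteins of the active spliceosome, had 8.23 and 8.06. *CWC2*, whose product touches U6 RNA, had 7.94, and *CWC15* had 8.21. *SYF1* and *SYF2* had 7.76 and 7.85, with *SYF1* encoding a scaffold of repeated helices. The group on the list holds the complex and related genes. Of its 7 members, *SYF1*, *SYF2* and *CWC2* lay below the lower quartile, as did 5 of its 7 other genes. Those 5 were *CLF1* (7.68), *ISY1* (7.91), *BUD31* (7.75), *ECM2* (7.24) and *CEF1* (7.93). The remaining genes, *SNT309* and *NTC20*, had 8.81 and 8.39.

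The 6 helicases of the *PRP* family each act at their own step. *PRP5*, which works as U2 joins the branch point, had a mean log2 signal of 7.73. *PRP28*, which exchanges U1 for U6 at the 5' splice site, had 7.69. For *PRP2*, which activates the complex before the first cut, the signal was 7.48. *PRP16* remodels the complex between the 2 chemical steps and had 8.49, and *PRP22*, which releases the spliced mRNA, had 8.52. *PRP43*, which takes the spent spliceosome apart and also acts in ribosome biogenesis, had 10.32. The other 5 lay between 7.48 and 8.52, with a median of 7.73. Of the partners on the list, *SPP2* of Prp2 had 7.94, and *SPP382*, *NTR2* and *SQS1* of Prp43 had 7.28, 7.79 and 7.83. *SUB2*, a helicase of early assembly and of mRNA export, had 12.31.

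Step factors in the strict sense enter late and position the RNA for the 2 reactions. The group of this name on the list is wider and also holds *CWC* genes with other roles. *YJU2* and *CWC25* promote the first, branching reaction and had mean log2 signals of 6.94 and 7.84. *CWC22*, which helps Prp2 act, had 7.86, and *CWC24*, a zinc finger protein at the 5' splice site, had 7.79. *CWC21*, whose product contacts Prp8, had 8.28. *CWC23*, a J-domain protein tied to disassembly, had 8.27, and *CWC27*, a protein of the cyclophilin type, had 8.34. *PRP18* of the second reaction had 7.14. The genes with other names in this group of the list, *SLU7* and *CDC40*, had 7.46 and 8.49. Of the 8 members in this group of the list, 5 lay below the lower quartile of the table. They were *YJU2*, *CWC22*, *CWC24*, *CWC25* and *PRP18*.

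**Figure D2:**
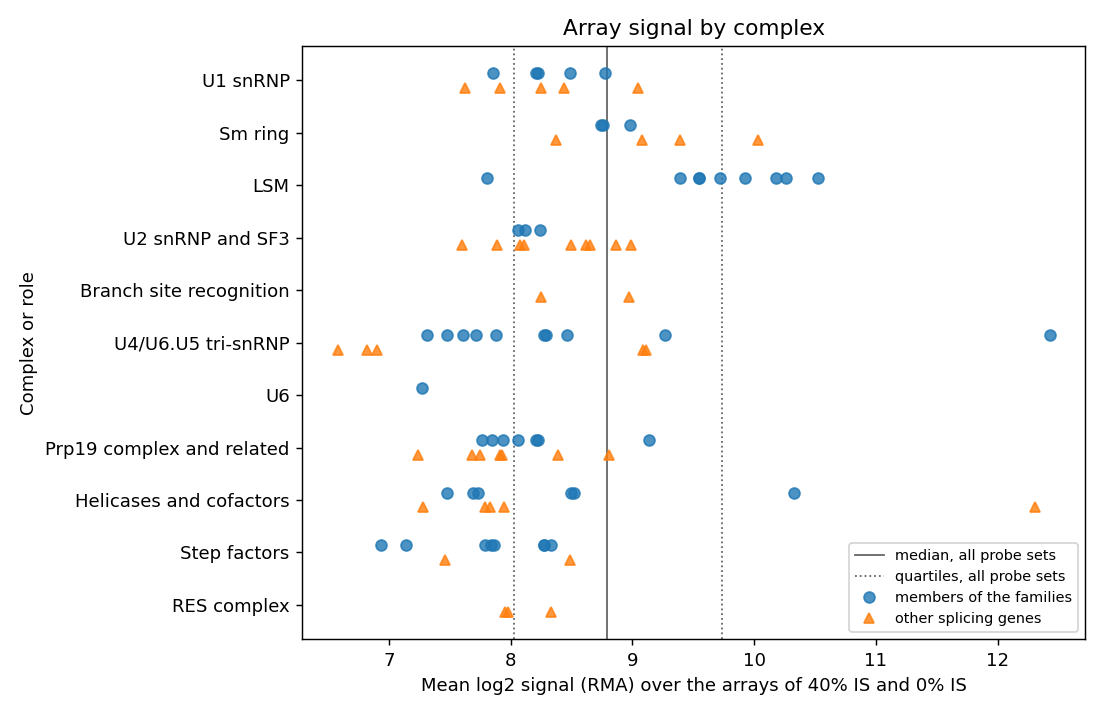
Authors' mean log2 signal (horizontal axis, RMA) by complex or role (vertical axis), with circles for the 52 members and triangles for 42 other splicing genes; the solid line is the median of all probe sets and the dotted lines their quartiles. Most points lie between 7 and 9, and *SNU13* (12.43) and *SUB2* (12.31) lie far to the right.

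The 42 other splicing genes of the list, each with 1 probe set in the table, had a median of 8.18 beside 8.24 for the members, and 19 of the 42 lay below the lower quartile beside 19 of the 52 members. Neither share was tested. The genes of branch site recognition, *MSL5* and *MUD2*, had 8.25 and 8.97. The 3 genes of the RES complex, which aids splicing and retention of pre-mRNA, ranged from 7.95 for *IST3* through 7.98 for *BUD13* to 8.33 for *PML1*. In the RefSeq annotation, *SMD1* and *PRP38* are next to each other on the chromosome, the 1 such pair among the members, and their signals were 8.98 and 7.47.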

How the data were processed

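The authors normalized the arrays with RMA in Affymetrix Expression Console. The authors' deposited table gives, for each of 5705 probe sets, a mean log2 signal, read from its header as limma's mean over the 6 arrays. Another 5 columns hold the authors' own comparison of the conditions (log2 fold change, moderated t, p-value, adjusted p-value and log-odds) and were not used, and 3 columns were empty. These columns are the output of limma, which the methods name for the comparison. How the probe sets were chosen is not given in the sources used here. Array number and pooling limit the precision, and depth does not apply.

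Systematic names were paired with symbols through RefSeq genes of assembly R64, in which 5692 of 5705 rows were found. Gene start positions served only to order protein-coding genes on each chromosome and so find neighbouring members. No sequences or lengths were used. The members and the lists of other splicing genes were chosen with earlier results of these data known. Every member was named. Medians, ranges and counts below the lower quartile of the table were computed with Python 3.11.15, numpy 2.4.6 and pandas 2.3.3, and plotted with matplotlib 3.10.9. Matching and summaries were tested on simulated data. Fits planned on values per array were replaced by this description, without any test. Alternatives were chosen after seeing the data.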

Additional observations from a re-analysis of the deposited data

How the results depend on the processing

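The medians of the mean log2 signals were recomputed under 3 alternatives chosen after seeing the data. When probe sets under the lower quartile were left out, the median was 8.52 over all members, 8.29 for *PRP*, 9.82 for *LSM*, 8.46 for *SNU* and 8.28 for *CWC*, since the dimmer members were removed by construction. *SMD* did not move, and *SYF* and *YJU2* had no probe set left. Matching older symbols as well added 16 genes, some of which are no splicing genes, and gave 8.28 over all members, 8.27 for *PRP*, 9.62 for *LSM*, 7.95 for *SNU*, 7.96 for *CWC*, 7.76 for *SYF* and 8.87 for *SMD*. Keeping 1 probe set per gene could not change a median, because each of the 52 members has 1 probe set. The alternatives planned for differences between the conditions (thresholds, centring, variance models, leaving out arrays) were not run. The deposited table holds no values per array, and the authors' comparison was not used. No paired analysis was possible because the pooled means carry no replicate numbers. The mean signals have no spread, so none of these medians has an error.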
